A study of Mus musculus with 9 samples.

Results

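Collagens are the main structural proteins of the extracellular matrix, and this account follows their genes in mouse gastrocnemius, the large calf muscle. Members were all genes whose symbol has the form Col, a number, a and a number, and which were above 0 in all 9 libraries after the table's records were summed by symbol. Of 30 such symbols, built from 75 records, 29 met this, out of 15372 symbols tested. They fall into 8 fibrillar collagens, 6 type IV chains, 5 type VI chains and 10 others. The remaining symbol, Col16a1, was listed at 0 in every wildtype library and was tested here only in the alternative with no filter on low values.

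The 9 libraries form 3 groups of 3. Vehicle was given to wildtype mice in the first group and to mdx mice in the next. In the last, called GTx-026 below, mdx mice received GTx-026, 10 mg/kg by subcutaneous injection. All carried the strain label C57BL/6. The mdx mouse carries a nonsense mutation in Dmd, the gene of dystrophin, in every cell, and serves as a mouse model for Duchenne muscular dystrophy. By the series title GTx-026 stands for androgen receptor agonists, and no wildtype mice given the drug were analysed here. The design text speaks of 3 mice per group without saying which mouse gave which library, so the spread behind each p-value is that between libraries and may be partly technical.

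A collagen chain repeats the triplet Gly-X-Y, in which glycine packs into the centre of a triple helix of chains. Fibrillar collagens carry a long uninterrupted helix, assemble side by side into fibrils, and make up most of the tendon, the epimysium and scar. Type IV collagen, with an interrupted helix, forms the sheet-like network of basement membranes around muscle fibres and capillaries, and type VI forms beaded microfibrils beside that membrane. In muscle most collagen is made by fibroblasts and fibro-adipogenic cells, and its accumulation, called fibrosis, is a feature of dystrophic muscle.

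The coding sequences show what the family shares and where the classes differ. Below are 30 codons each of Col1a1 and Col3a1 (fibrillar), Col6a1 (type VI) and Col4a1 (type IV), 5′ to 3′, from the GENCODE M21 transcript with the longest coding sequence. Glycine codons are in capitals, and each of the first 3 stretches starts in the middle of the longest Gly-X-Y run of its chain. The Col4a1 stretch spans the end of its longest run, so that the loss of the repeat is seen.
Col1a1, codons 675 to 704: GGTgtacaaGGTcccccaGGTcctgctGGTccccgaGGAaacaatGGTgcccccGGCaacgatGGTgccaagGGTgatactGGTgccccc
Col3a1, codons 680 to 709: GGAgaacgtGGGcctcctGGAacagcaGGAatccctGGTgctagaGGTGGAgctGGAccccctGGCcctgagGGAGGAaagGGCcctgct
Col6a1, codons 385 to 414: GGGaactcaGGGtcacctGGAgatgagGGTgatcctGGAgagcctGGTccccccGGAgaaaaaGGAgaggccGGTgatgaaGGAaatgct
Col4a1, codons 148 to 177: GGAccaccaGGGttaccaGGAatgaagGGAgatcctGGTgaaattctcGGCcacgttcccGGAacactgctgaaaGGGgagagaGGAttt
Col1a1 and Col6a1 hold 10 glycine codons in these 30, exactly spaced. Col3a1 holds 12, the same 10 spaced codons and 2 that add glycine at another position of a triplet. Col4a1 holds 9, and after codon 162, where its run of 40 triplets ends, the spacing breaks.

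Over the whole chains the longest uninterrupted run set the fibrillar class apart. It was 337 to 344 triplets in 7 of the 8 fibrillar members and 216 in Col24a1. The type IV chains had a longest run of 39 to 66 triplets, but 22 to 27 separate runs of at least 5 triplets, which together covered 74.9% to 78.8% of the chain. In the type VI chains 3 to 5 runs covered 10.0% to 31.9%. The 10 others were mixed, with a longest run of 30 to 113 triplets.

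The Dmd transcript itself was lower in the mdx libraries. It was at 41.4, 60 and 51.0 CPM in wildtype and 11.4, 21.7 and 21.7 CPM in mdx vehicle. In GTx-026 it was at 17.5, 14.2 and 18.0 CPM (limma, adjusted p = 0.0424 for mdx vehicle and 0.0178 for GTx-026 against wildtype). CPM are estimated reads per mega-read (M) of the library after rescaling. The estimated reads listed were 25.1 M to 38.0 M per library, and collagen genes at about 1 CPM or below rest on few of them, 14 to 24 for Col4a6 and 17 to 63 for Col11a2. Both facts on libraries that touch all that follows concern mdx vehicle. Its library 1 correlated least with its own group across genes (0.945, against 0.959 to 0.983 in the other 8). Its library 3 held most of the collagen RNA of its group. Below, log2 fold changes are differences of mean log2(CPM + 1), given with the standard error (SE) of the limma model, and a gene is called at an adjusted p under 0.05.

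Summed over the 29 genes, collagen RNA was 883, 1050 and 1160 CPM in the wildtype libraries, 1050, 1140 and 2590 CPM in mdx vehicle, and 2430, 1600 and 2450 CPM in GTx-026. Libraries 1 and 2 of mdx vehicle thus lay within the wildtype range, and all 3 GTx-026 libraries lay above it. The fibrillar genes made up 47.1% ± 4.06 of the collagen CPM in wildtype, then 55.1% ± 4.87 in mdx vehicle and 58.8% ± 3.01 in GTx-026 (SD, n = 3). The type IV share was 21.2% ± 5.68, 14.6% ± 2.52 and 15.5% ± 1.88, and the type VI share was 18.3% ± 0.700, 18.2% ± 1.00 and 16.8% ± 0.400. The others made up 13.4% ± 1.04, 12.1% ± 1.65 and 8.85% ± 1.12, and theirs was the class share whose GTx-026 libraries, at 7.72% to 9.96%, lay below all vehicle libraries of both genotypes. These shares are compared as descriptions, with no test.

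**Figure D1:**
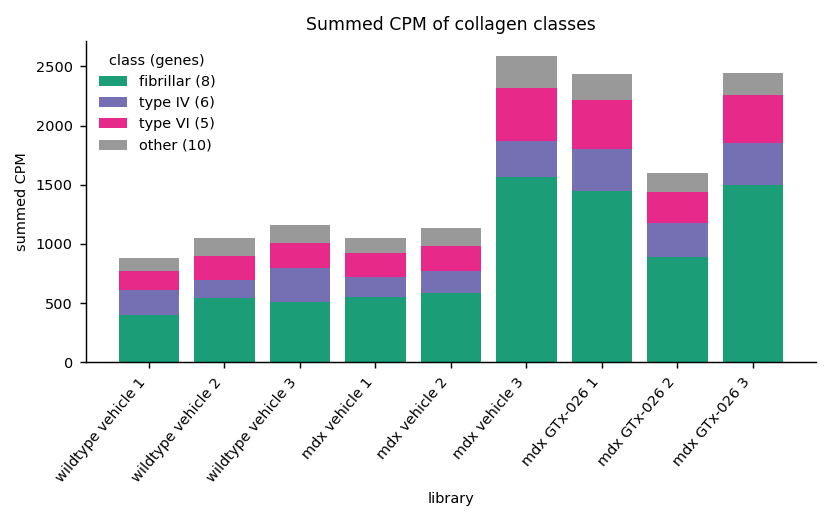
Summed CPM (y axis, from 0) of the 4 collagen classes in each of the 9 libraries (x axis), stacked, with the number of genes in the legend. Library 3 of mdx vehicle, at 2590 CPM, stands beside the GTx-026 libraries, and libraries 1 and 2 beside the wildtype ones.

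No collagen gene was called in any of the 3 comparisons, where 0.488% of all symbols were called for mdx vehicle against wildtype, 0.013% for GTx-026 against mdx vehicle and 1.65% for GTx-026 against wildtype. Unadjusted p-values under 0.05 with a higher mean numbered 5, 4 and 18 of 29 in these comparisons, beside 6.49%, 1.99% and 7.55% of all symbols. In mdx vehicle against wildtype 26 of 29 members had a log2 fold change above 0 (51.0% of all symbols) and the median was 0.45 (all symbols 0.008). In GTx-026 against mdx vehicle 22 of 29 did (51.1%), with a median of 0.30 (0.005). In GTx-026 against wildtype 26 of 29 did (50.3%), with a median of 0.71 (0.001). Any pair of these comparisons shares the libraries of a group, so the 3 medians are not independent.

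Groups that did not overlap are counted next. Against wildtype, 8 members were higher in every mdx vehicle library than in every wildtype library (Col3a1, Col5a1, Col5a2, Col6a5, Col7a1, Col8a1, Col19a1 and Col23a1), where 8.09% of all symbols were, and Col4a4 was lower throughout, as 8.59% were. Between GTx-026 and mdx vehicle, Col4a4 and Col11a2 lay higher without overlap (3.68% of all symbols) and Col24a1 lower (3.17%). Between GTx-026 and wildtype, 16 members, or 55.2%, lay higher without overlap (11.7% of all symbols) and Col24a1 lower (9.28%). For Col24a1 the gap was smaller than the rounding, as GTx-026 library 1 and wildtype libraries 1 and 3 all read 10.6 CPM.

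The mdx vehicle values turned on library 3. Without it, the median of the 29 members against wildtype went from 0.45 to 0.12, with 19 above 0, and the median of GTx-026 against mdx vehicle went from 0.30 to 0.65, with 24 above 0. Without library 1 the latter was 0.06, with 17 above 0, and with library weights it was 0.02, with 15 above 0, its lowest value over all alternatives. Over all alternatives the median of GTx-026 against wildtype lay between 0.49 and 0.88, with 22 to 27 members above 0. In bulk RNA a change in the number of collagen-making cells and a change in RNA per cell cannot be told apart.

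**Figure D2:**
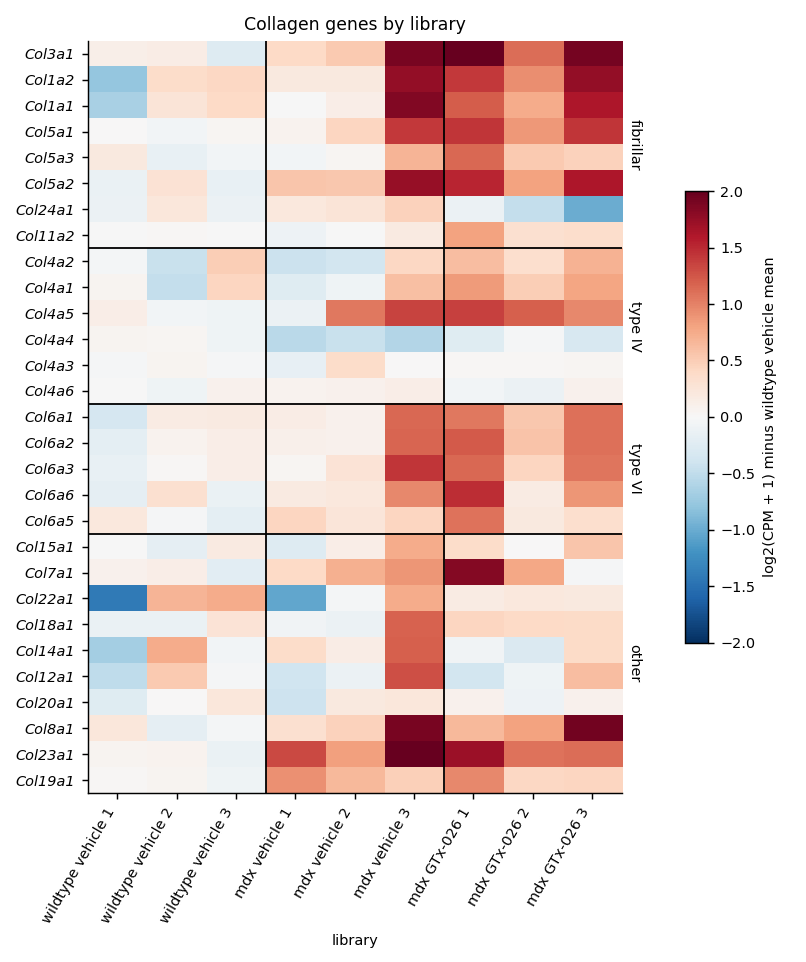
Each cell is log2(CPM + 1) of a collagen gene (rows, by class and then by mean level) in a library (columns), minus the mean of the wildtype vehicle libraries; red is higher and blue lower, and the colours end at 2 and -2. Most rows of the fibrillar and type VI classes are red in mdx vehicle library 3 and in all 3 GTx-026 libraries. Col24a1 is blue in GTx-026 libraries 2 and 3 and only faintly so in library 1, and Col4a4 is blue in mdx vehicle.

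Col3a1 and Col1a2, of the type III and type I collagen that make up the bulk of fibrils, were the most abundant members. Per kb of transcript, the scale on which genes can be compared, the level of Col3a1 in wildtype was 28.8 ± 4.29 CPM per kb and that of Col1a2 26.5 ± 10.4, which do not differ beyond their spread. Col6a1 (18.2 ± 3.51), Col4a2 (17.4 ± 5.77), Col6a2 (15.3 ± 1.77), Col4a1 (15.1 ± 4.71) and Col1a1 (14.4 ± 5.05) followed, again with spreads that overlap. In mdx GTx-026 Col3a1 was at 96.6 ± 30.2 and Col1a2 at 66.2 ± 18.4 CPM per kb, ahead of Col6a1 at 34.2 ± 6.88 and Col1a1 at 32.6 ± 9.70 (SD, n = 3). In mdx vehicle the first place was again held by Col3a1, at 62.1 ± 39.6, ahead of Col1a2 (47.2 ± 32.5). Library 3 was the highest for both genes, at 599 and 453 CPM, so these SDs do not measure the spread of the lead. The order within libraries was not tested.

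Col3a1 encodes the chain of type III collagen, which mixes with type I in pliable tissue and early scar. It was at 172, 176 and 133 CPM in wildtype, then 209, 228 and 599 CPM in mdx vehicle and at 665, 347 and 600 CPM in GTx-026. Every mdx library lay above every wildtype library, and libraries 1 and 2 of mdx vehicle lay below all GTx-026 libraries. The log2 fold change was 0.94 (SE 0.39, adjusted p = 0.368) for mdx vehicle against wildtype and 0.76 (SE 0.39, adjusted p = 1.0) for GTx-026 against mdx vehicle. For GTx-026 against wildtype it was 1.70 (SE 0.39, adjusted p = 0.0734), the lowest adjusted p of the 29 members in that comparison.

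Col1a1 and Col1a2 encode the chains of type I collagen. Col1a1 was at 51.3, 97.2 and 108 CPM in wildtype, then 81.3, 89.6 and 296 CPM in mdx vehicle and 190, 137 and 252 CPM in GTx-026. Col1a2 was at 77.6, 171 and 177 CPM, at 153, 152 and 453 CPM and at 357, 254 and 451 CPM in the same order. For both genes wildtype library 1 was lowest and mdx vehicle library 3 highest, the GTx-026 group did not overlap wildtype, and the mdx vehicle group overlapped both. Against wildtype the GTx-026 log2 fold changes were 1.19 (SE 0.48) and 1.37 (SE 0.46), with adjusted p of 0.330 and 0.227, and those of mdx vehicle were 0.66 and 0.72.

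Col5a1, Col5a2 and Col5a3 encode type V chains, which sit inside fibrils and set their diameter. Col5a1 was tight in wildtype, at 30.8, 29.6 and 31.7 CPM, and was at 32.1, 41.7 and 83.5 CPM in mdx vehicle and 84.8, 57.1 and 84.3 CPM in GTx-026. Its GTx-026 libraries were all above wildtype by a margin larger than the wildtype spread (log2 fold change 1.25, SE 0.30, adjusted p = 0.0895). Col5a2 was at 17.6, 23.8 and 17.4 CPM, then 29.1, 28.7 and 66.9 CPM, then 57.9, 34.8 and 61.3 CPM. Both mdx groups lay above wildtype without overlap for Col5a2, with log2 fold changes of 0.95 (SE 0.33, adjusted p = 0.292) and 1.32 (SE 0.33, adjusted p = 0.0993). Col5a3 was at 40.1, 31.3 and 33.4 CPM in wildtype and 78.6, 50.2 and 48.4 CPM in GTx-026, with mdx vehicle at 33.3, 35.6 and 56.3 CPM, a group that overlapped both.

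The last fibrillar members were scarcer and did not share this order. Col24a1, a minor fibrillar chain, was at 10.6, 13.7 and 10.6 CPM in wildtype, then 13.6, 14.0 and 16.2 CPM in mdx vehicle and 10.6, 8.04 and 5.29 CPM in GTx-026. Among the 8 fibrillar genes only Col24a1 had a lower mean in GTx-026 than in mdx vehicle, with a log2 fold change of -0.84 against mdx vehicle (SE 0.22, unadjusted p = 0.00409, adjusted p = 1.0) and a value below 0 under each alternative, from -1.05 to -0.60. Col11a2, a type XI chain best known from cartilage, was at 0.618 to 0.649 CPM in wildtype, then 0.521 to 0.843 CPM in mdx vehicle and 1.04 to 1.86 CPM in GTx-026. These are values near 1 CPM, and the log2(CPM + 1) scale understates their ratio.

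**Figure D3:**
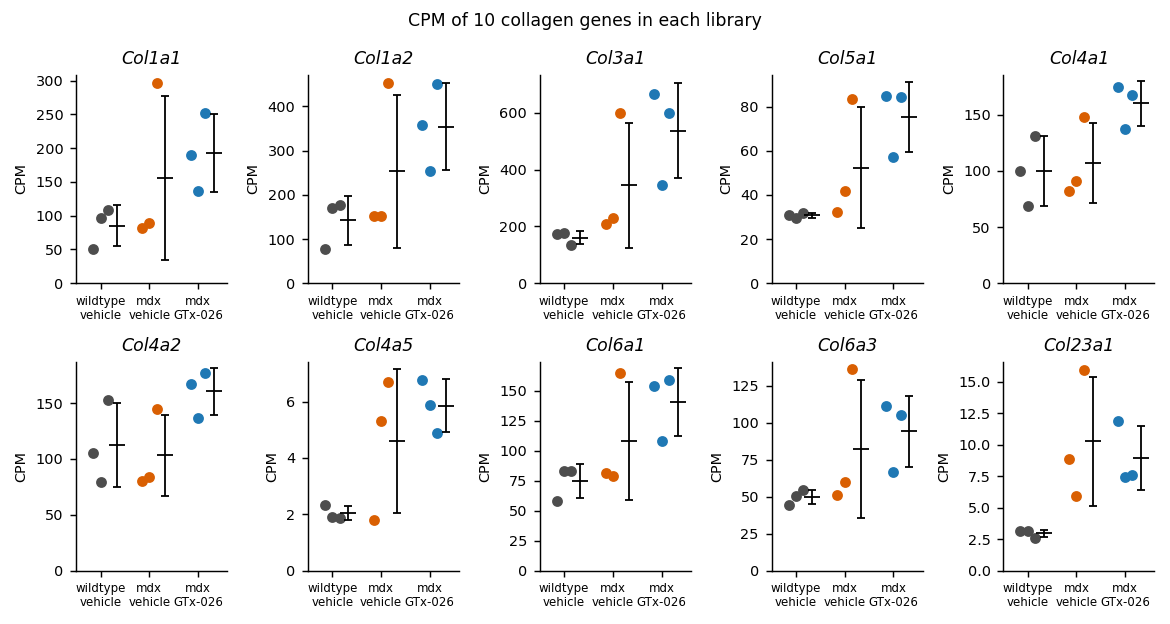
CPM (y axes, each from 0) of 10 collagen genes; points are the 3 libraries of each group in the order 1, 2, 3, and the bar beside them is the mean ± SD. In all but Col4a5 and Col23a1, mdx vehicle libraries 1 and 2 sit close to wildtype and library 3 close to the GTx-026 group, as for Col3a1 with 209, 228 and 599 CPM. For Col4a2, library 3 at 145 CPM also lies within the wildtype range of 79.3 to 153 CPM.

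As a class, the fibrillar genes had a median log2 fold change of 0.65 for mdx vehicle against wildtype, with 8 of 8 above 0. The median was 0.51 for GTx-026 against mdx vehicle, with 7 of 8 above 0. For GTx-026 against wildtype it was 1.22, with 7 of 8 genes higher than wildtype without overlap. Col24a1 was lower, with its nearest libraries equal at 10.6 CPM as rounded. By library, the class median lay 0.13, 0.22 and 1.57 above the wildtype mean in mdx vehicle and 1.32, 0.78 and 1.52 above it in GTx-026. The median for mdx vehicle against wildtype was 0.215 without mdx vehicle library 3 and 0.33 without wildtype library 1. That for GTx-026 against mdx vehicle was 0.88 without mdx vehicle library 3, 0.34 without library 1, and 0.18 with library weights. The median for GTx-026 against wildtype was 0.93 without wildtype library 1, its lowest value leaving out a library.

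The type IV genes lie in head-to-head pairs. In GENCODE M21 (GRCm38) Col4a1 (chromosome 8, 11198423 to 11312826, minus strand) and Col4a2 (11312805 to 11449287, plus strand) overlap by 22 bases at their starts. Col4a4 and Col4a3 on chromosome 1 are 71 bases apart, and Col4a6 and Col4a5 on the X chromosome 1308 bases. The RefSeq windows around the starts of Col4a1 and Col4a2, 250 bases before to 50 after, on GRCm38.p6, are printed because these neighbours had nearly the same levels in every library; each is given on its gene's own strand, with the 78 bases that the windows share in capitals.
Col4a1, chr8:11312777-11313076, minus strand: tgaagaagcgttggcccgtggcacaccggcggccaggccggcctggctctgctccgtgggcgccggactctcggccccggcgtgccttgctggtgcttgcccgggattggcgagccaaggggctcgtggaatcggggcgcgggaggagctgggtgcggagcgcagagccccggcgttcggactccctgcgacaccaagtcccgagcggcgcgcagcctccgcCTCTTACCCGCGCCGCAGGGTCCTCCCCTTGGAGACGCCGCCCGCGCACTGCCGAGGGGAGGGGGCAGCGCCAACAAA
Col4a2, chr8:11312555-11312854, plus strand: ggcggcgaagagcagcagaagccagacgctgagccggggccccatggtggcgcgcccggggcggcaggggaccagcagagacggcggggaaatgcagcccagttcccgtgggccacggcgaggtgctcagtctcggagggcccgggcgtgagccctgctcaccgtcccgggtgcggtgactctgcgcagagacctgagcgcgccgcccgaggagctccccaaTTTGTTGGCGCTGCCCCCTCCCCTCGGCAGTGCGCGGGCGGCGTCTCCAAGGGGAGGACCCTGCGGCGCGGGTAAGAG
The start sites are 21 bases apart. RefSeq windows were matched for 24 of the collagen symbols, and 16 of these hold the motif GGGCGG on either strand, 8 hold CCAAT and 2 hold TATAAA, where 35.7%, 37.4% and 13.6% of all 32851 windows of that length do. A match is a description of letters in the window only.

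Col4a1 and Col4a2, the chains of the basement membrane network found in nearly all tissues, had like levels in each library. Col4a1 was at 100, 69.0 and 131 CPM in wildtype, then 81.7, 91.0 and 148 CPM in mdx vehicle and 175, 137 and 168 CPM in GTx-026. Col4a2 was at 105, 79.3 and 153 CPM, 80.0, 84.1 and 145 CPM, and 167, 137 and 177 CPM. Wildtype and mdx vehicle spanned nearly the same range, and the GTx-026 libraries lay at the top of it or above. For GTx-026 against mdx vehicle the log2 fold changes were 0.62 (SE 0.27, unadjusted p = 0.0469) and 0.68 (SE 0.28, unadjusted p = 0.0359), each with an adjusted p of 1.0. For mdx vehicle against wildtype they were 0.09 and -0.13, the latter turning to 0.05 with the deposited scaling.

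The log2 ratio of Col4a2 to Col4a1 within a library was 0.16 ± 0.08 in wildtype, -0.06 ± 0.05 in mdx vehicle and 0.01 ± 0.07 in GTx-026 (SD, n = 3). Ratios were tested for mdx vehicle against wildtype and for GTx-026 against mdx vehicle, and not for GTx-026 against wildtype. The wildtype and mdx vehicle ratios did not overlap, the only such case among these 10 tests of 5 chain ratios (exact permutation test, two-sided, p = 0.1, the smallest that 3 against 3 allow, adjusted 0.6). The Col1a1 to Col1a2 log2 ratio was -0.70, -0.76 and -0.88 in the 3 groups in order, with exact permutation p of 0.6 and 0.3 in the tested comparisons. Its GTx-026 values, -0.91, -0.88 and -0.84, lay below the wildtype values of -0.59, -0.81 and -0.71, a difference that was not tested. None of the remaining ratios, of Col3a1 to Col1a1, Col6a3 to Col6a1 and Col5a1 to Col5a2, separated the groups in the tested comparisons.

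The rarer type IV chains went separate ways. Col4a4, a chain of the specialised network of kidney, lung and eye, was at 2.29, 2.26 and 2.00 CPM in wildtype, then 1.19, 1.33 and 1.13 CPM in mdx vehicle and 1.68, 2.12 and 1.56 CPM in GTx-026. The mdx vehicle group lay below both other groups without overlap, with a log2 fold change of -0.52 against wildtype (SE 0.12, adjusted p = 0.140) that stayed below 0 under each alternative. Its head-to-head neighbour Col4a3 was at 1.04 to 1.16 CPM in wildtype, then 0.857 to 1.68 CPM in mdx vehicle and 1.11 to 1.15 CPM in GTx-026. A gene on the opposite strand, C430014B12Rik, overlaps 563 exon bases of Col4a3, and whether the counting used strand is not stated, so their reads cannot be told apart. Col4a5 was at 2.32, 1.91 and 1.86 CPM in wildtype, then 1.78, 5.31 and 6.71 CPM in mdx vehicle and 6.76, 5.89 and 4.88 CPM in GTx-026. Here mdx vehicle library 2 was with library 3 and above wildtype, and library 1 was not. The log2 fold change of Col4a5 for GTx-026 against wildtype was 1.17 (SE 0.33, adjusted p = 0.137). Over the 19 alternatives the adjusted p of limma ran from 0.00926 to 0.367 and was under 0.05 in 3. The lowest was that without mdx vehicle library 1, which enters only the shared variance. Its neighbour Col4a6 lay between 0.443 and 0.713 CPM in all 9 libraries.

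The type IV class had a median log2 fold change of 0.08, 0.37 and 0.29 in the 3 comparisons, in the order mdx vehicle against wildtype, GTx-026 against mdx vehicle and GTx-026 against wildtype, with 4 of 6 above 0 in each. With members of at least 1 CPM on average the last median was 0.55.

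The type VI chains Col6a1, Col6a2 and Col6a3 assemble together into microfibrils, and mutations in each of them cause muscle disease in people. Col6a1 was at 58.1, 82.7 and 83.3 CPM in wildtype, then 81.4, 78.4 and 165 CPM in mdx vehicle and 154, 108 and 159 CPM in GTx-026. Col6a2 was at 52.7, 63.1 and 66.0 CPM, 64.9, 64.4 and 137 CPM, and 142, 90.4 and 130 CPM, and Col6a3 at 44.6, 50.4 and 54.3 CPM, 50.8, 60.1 and 136 CPM, and 111, 66.8 and 105 CPM. For each of these genes the GTx-026 libraries lay above all wildtype libraries, and mdx vehicle library 3 stood far above the other mdx vehicle libraries. The log2 fold changes against wildtype were 0.90 (SE 0.29), 0.96 (SE 0.29) and 0.88 (SE 0.34) for GTx-026, with adjusted p of 0.213, 0.169 and 0.303, and 0.46, 0.46 and 0.58 for mdx vehicle.

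Col6a5 and Col6a6 encode chains that can take the place of the Col6a3 chain. Col6a5 was at 1.14, 0.820 and 0.618 CPM in wildtype, then 1.5, 1.18 and 1.49 CPM in mdx vehicle and 2.92, 1.11 and 1.34 CPM in GTx-026. Col6a6 was at 2.08, 3.38 and 2.18 CPM, 2.97, 3.04 and 5.84 CPM, and 8.74, 2.91 and 5.49 CPM. The highest value of GTx-026 was in library 1 for both genes. Library 3 also lay above every wildtype value for both, while library 2 did not, so that the GTx-026 group overlapped wildtype. The type VI class had a median of 0.46, 0.39 and 0.88 in the 3 comparisons, with 5 of 5 above 0 in each, and 5 of 5 had an unadjusted p under 0.05 for GTx-026 against wildtype. Without mdx vehicle library 3 the first median was 0.15 and the second 0.73, and the second was 0.26 without mdx vehicle library 1, 0.25 without its library 2, 0.61 without GTx-026 library 2, 0.165 without GTx-026 library 1 and 0.10 with library weights.

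**Figure D4:**
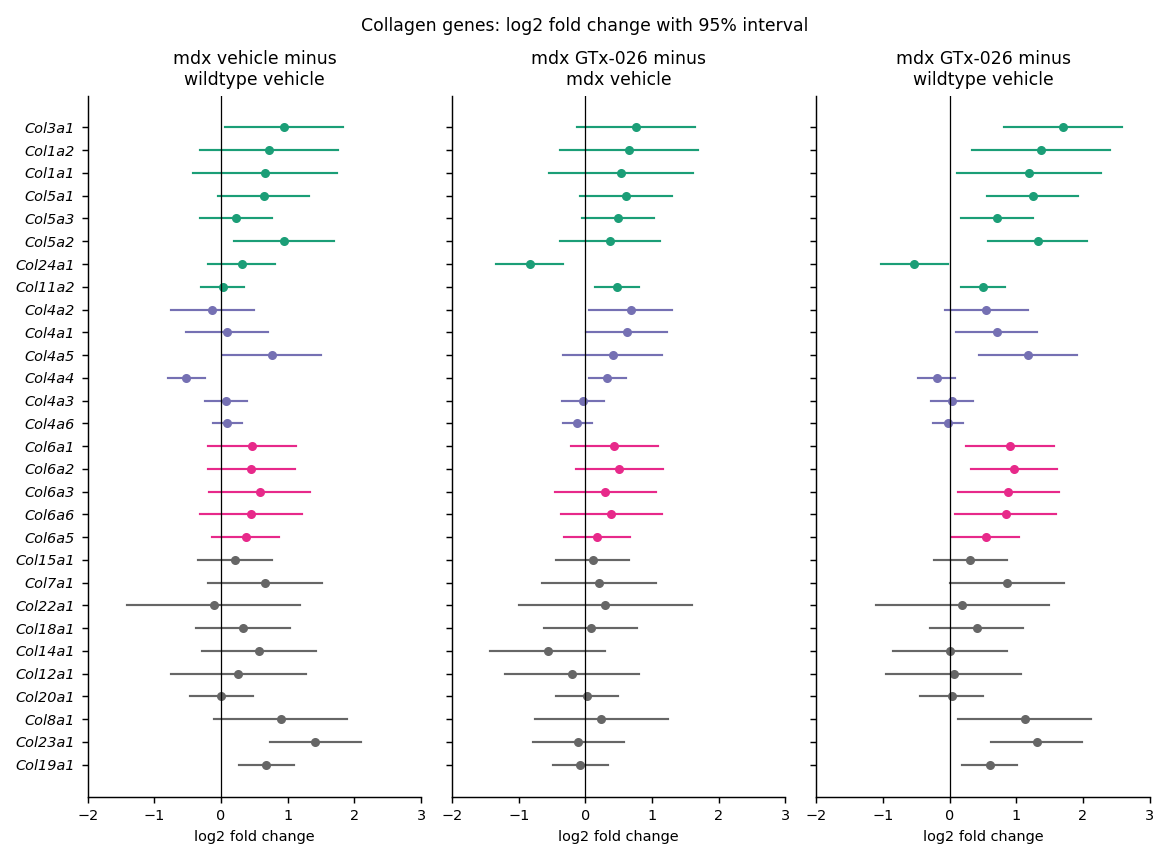
Log2 fold change (points) with its 95% interval from the limma model (lines) for the 29 genes (rows) in the 3 comparisons (panels); green is fibrillar, violet type IV, pink type VI and grey other. In the right panel 7 of 8 fibrillar and 5 of 5 type VI intervals lie above 0, Col24a1 lies below 0, and the intervals are not adjusted for the number of genes.

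Among the 10 others, Col23a1, a membrane-spanning collagen, had the lowest adjusted p of all members against wildtype in mdx vehicle. It was at 3.12, 3.14 and 2.62 CPM in wildtype, then 8.88, 5.95 and 15.9 CPM in mdx vehicle and 11.9, 7.41 and 7.57 CPM in GTx-026. All mdx libraries lay clearly above wildtype, libraries 1 and 2 included, with log2 fold changes of 1.41 (SE 0.30, adjusted p = 0.103) and 1.30 (SE 0.30, adjusted p = 0.0755). GTx-026 and mdx vehicle differed by -0.11 (95% interval -0.79 to 0.58). Col19a1, a collagen attached to other matrix structures, was at 1.66, 1.71 and 1.46 CPM, 3.89, 3.10 and 2.63 CPM, and 4.05, 2.47 and 2.52 CPM. It too was above wildtype in all 6 mdx libraries (log2 fold change 0.68, SE 0.18, adjusted p = 0.190, in mdx vehicle), but 1 of its 4 records is listed at 0 in wildtype, and without that record the value is 0.31.

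Col8a1, a short-chain collagen of vessel walls, was at 4.99, 3.49 and 3.97 CPM in wildtype, then 5.36, 6.01 and 18.1 CPM in mdx vehicle and 7.03, 7.91 and 18.4 CPM in GTx-026. Each mdx library was above the wildtype ones, and 1 library in each mdx group stood far above the rest. Col7a1, the chain of the anchoring fibrils of skin, was at 20.6, 21.3 and 16.5 CPM, 25.7, 32.3 and 36.4 CPM, and 71.4, 33.6 and 19 CPM. The mdx vehicle group lay above wildtype, and the GTx-026 values ran from within the wildtype range to the highest of all.

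Among the collagens of the basement membrane zone, the fibril surface and the tendon junction the groups mostly overlapped. Col15a1 was at 36.5 to 47.5 CPM in wildtype, then 34.7 to 70.2 CPM in mdx vehicle and 41.9 to 61.3 CPM in GTx-026. Col18a1, the source of endostatin, was at 10.5 to 14.3 CPM, 10.6 to 27.7 CPM and 15.5 to 16.1 CPM, the GTx-026 group lying above wildtype without overlap. Col12a1 and Col14a1, which bind the surface of fibrils, were highest in mdx vehicle library 3, at 28.8 and 26.1 CPM. Their GTx-026 values of 8.42 to 17.8 CPM and 8.64 to 14.4 CPM lay within or near the wildtype ranges of 7.59 to 16.6 and 6.34 to 18.8 CPM. Col22a1, a collagen of the junction of muscle and tendon, was at 6.48, 31.0 and 32.2 CPM in wildtype, against 8.76, 18.5 and 32.3 CPM in mdx vehicle and 21.3, 22.2 and 21.8 CPM with GTx-026. Its spread within the vehicle groups is larger than any difference between groups. Col20a1 lay between 7.23 and 11.9 CPM in all 9 libraries. The class median was 0.45, 0.05 and 0.36 in the 3 comparisons. Col16a1, which did not pass the filter, was listed at 0 in wildtype, at 1.75, 2.21 and 6.23 CPM in mdx vehicle and at 2.89, 2.63 and 2.93 CPM in GTx-026.

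Genes whose products fold, cut and cross-link collagen were taken as a list of 36, of which 32 were tested. Loxl4, listed at 0 in wildtype, and Adamts3, listed at 0 in GTx-026, did not pass the filter. None was called in any comparison. For mdx vehicle against wildtype 24 were above 0 with a median of 0.22, and for GTx-026 against wildtype 30 were, with a median of 0.46 and 16 that did not overlap. Unadjusted p-values under 0.05 with a higher mean numbered 9 and 14 in these comparisons. In this list and those that follow, the shares over all symbols are 8.09% and 11.7% for no overlap and a higher mean, and 6.49% and 7.55% for such p-values, in mdx vehicle and GTx-026 against wildtype. Fkbp10, a chaperone that helps collagen fold, was at 6.06, 5.64 and 5.60 CPM in wildtype, then 10.6, 7.49 and 15.3 CPM in mdx vehicle and 12.4, 11.1 and 14.4 CPM in GTx-026 (log2 fold change 0.79, SE 0.23, and 1.01, SE 0.23, adjusted p = 0.213 and 0.0636). P3h3, of the prolyl 3-hydroxylase family, and Loxl3, of the lysyl oxidase family that cross-links fibrils, were also above wildtype in all mdx libraries, with means of 5.55 and 6.19 CPM in wildtype against 10.1 and 10.5 CPM in mdx vehicle.

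Creb3l1, a transcription factor that drives type I collagen genes in bone, went the other way in mdx vehicle. It was at 4.23, 3.42 and 2.80 CPM in wildtype, then 1.68, 1.74 and 2.40 CPM in mdx vehicle and 5.26, 4.02 and 4.83 CPM in GTx-026. The mdx vehicle group lay below both others without overlap, with log2 fold changes of -0.60 (SE 0.17, adjusted p = 0.218) against wildtype and 0.96 (SE 0.17, adjusted p = 0.369) for GTx-026 against mdx vehicle. The latter adjusted p was the lowest of this list in that comparison.

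Of 10 tested collagen receptors, 8 were above 0 for mdx vehicle against wildtype (median 0.24) and 9 for GTx-026 against wildtype (median 0.47), with no call and 3 and 5 at an unadjusted p under 0.05 and a higher mean. The integrin chain Itga10 was at 1.07 to 1.89 CPM in wildtype against 2.77 to 4.28 CPM in mdx vehicle, and the receptor kinases Ddr1 and Ddr2 were at 18.1 ± 1.93 and 18.7 ± 4.09 CPM in wildtype against 28.7 ± 9.40 and 31.9 ± 12.2 CPM in mdx vehicle (SD, n = 3). All 3 lay above wildtype without overlap. Mrc2, the uptake receptor for cleaved collagen, was at 12.5 ± 2.79 CPM in wildtype, then 21.4 ± 11.2 CPM in mdx vehicle and 21.6 ± 4.85 CPM in GTx-026.

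Of 7 tested collagen-degrading enzymes and their inhibitors, 5 were above 0 in mdx vehicle and 6 in GTx-026 against wildtype, with medians of 0.46 and 0.88, no call, and 2 and 4 at an unadjusted p under 0.05 and a higher mean. The inhibitor Timp1 did not pass the filter. It was listed at 0 in wildtype, at 2.30, 1.56 and 4.28 CPM in mdx vehicle and at 3.19, 4.65 and 4.50 CPM in GTx-026. Ctsk, a collagen-cutting cathepsin, was at 4.11 to 4.61 CPM in wildtype, then 118, 9.34 and 25 CPM in mdx vehicle and at 22.9, 12.1 and 33 CPM in GTx-026. Its highest value was in mdx vehicle library 1, not library 3. The membrane protease Mmp14 was at 9.96 ± 2.89, 19.9 ± 8.82 and 23.4 ± 2.74 CPM in the 3 groups, the gelatinase Mmp2 at 37.6 ± 14.3, 67.2 ± 38.7 and 97.8 ± 35.3 CPM, and the inhibitor Timp3 at 110 ± 17.7, 78.6 ± 20.6 and 96.8 ± 10.8 CPM. Of 11 laminins and other partners of type IV collagen, 10 were above 0 in each comparison, with medians of 0.13, 0.29 and 0.41, no call, and 0, 0 and 3 at an unadjusted p under 0.05 and a higher mean. The linker protein Nid2 was at 8.64 ± 1.45, 12.9 ± 4.82 and 17.8 ± 4.62 CPM in the 3 groups, and Nid1 at 42.4 ± 10.5, 58.2 ± 28.5 and 89.5 ± 18.9 CPM. The laminin chain Lamb1 was at 22.2 ± 0.917, 28.7 ± 13 and 30 ± 2.16 CPM, and the proteoglycan Agrn at 16.4 ± 2.22, 22.2 ± 8.12 and 21.7 ± 2.46 CPM (SD, n = 3).

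Marker genes of other cell types differed between libraries too. The 14 fibroblast and fibro-adipogenic markers summed to 1090 to 1320 CPM in wildtype, then 923, 1270 and 1950 CPM in mdx vehicle and 2450, 1770 and 2480 CPM in GTx-026. None of the 14 was at 0. For mdx vehicle against wildtype 11 of 14 were above 0 with a median of 0.40, and for GTx-026 against mdx vehicle 11 of 14 with a median of 0.42. For GTx-026 against wildtype 14 of 14 were, with a median of 0.70. The marker Lum had its highest mean in mdx vehicle, at 22.3 ± 3.73, 46.0 ± 17.5 and 33.2 ± 8.12 CPM in the 3 groups in order (SD, n = 3). Pdgfra, which defines fibro-adipogenic cells, was at 8.83, 12.1 and 10.2 CPM, 13.2, 18.5 and 20.6 CPM, and 27.4, 19.6 and 23.9 CPM, and its rise in GTx-026 against wildtype was the 1 call of the list (adjusted p = 0.0294). The order of these sums over libraries resembles that of the collagens. In both, mdx vehicle library 3 lay above libraries 1 and 2, and all GTx-026 libraries above wildtype. Gsn was the largest part of each sum, at 561 to 712 CPM in the wildtype group. With vehicle, mdx libraries 1, 2 and 3 held Gsn at 364, 635 and 1040 CPM, and with GTx-026 at 1590, 1060 and 1330 CPM. The median difference from the wildtype mean over the 14 genes, which does not rest on Gsn alone, kept that order. It was 0.06, 0.20 and 0.76 in mdx vehicle and 0.62, 0.56 and 1.04 in GTx-026, against -0.30, 0.30 and -0.07 in wildtype.

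The 7 tested tendon markers of 8 listed summed to 41.9, 210 and 259 CPM in wildtype. For mdx vehicle the sums were 170, 118 and 476 CPM, and for GTx-026 163, 176 and 366 CPM. Library 3 was the highest of each mdx group, as it was for Col1a1, while GTx-026 library 1, high in collagen, was not high in these sums. Thbs4 was the largest part of each mdx sum, at 116, 87.8 and 301 CPM with vehicle and 118, 128 and 211 CPM with GTx-026. Its wildtype values were 23.5 to 86.5 CPM. Over the list, 4 of 7 genes were above 0 for mdx vehicle against wildtype, with a median of 0.17. The median difference from the wildtype mean over the 7 genes was also highest in library 3 of each mdx group, at 1.32 and 1.19. The 9 tested macrophage markers of 10 listed genes summed to 30.8 to 77.5 CPM in wildtype, then 809, 98.7 and 357 CPM in mdx vehicle and 262 to 377 CPM in GTx-026. The sum in mdx vehicle library 1 was carried by Gpnmb at 422 CPM and Lgals3 at 189 CPM. Over the genes of the list the median difference from wildtype was 1.71, 0.50 and 2.12 in mdx vehicle, highest in the collagen-rich library 3, and 2.06, 1.65 and 1.99 in GTx-026. Lgals3 rose in mdx vehicle (adjusted p = 0.0287), and Lgals3 and C1qc rose in GTx-026 (adjusted p = 0.0148 and 0.0439), each against wildtype, with 8 of 9 at an unadjusted p under 0.05 in each of these comparisons. The 8 slow-fibre genes ran from 278 CPM in mdx vehicle library 1 to 13600 CPM in GTx-026 library 3, with no order of the groups. The 8 endothelial markers, of cells that make type IV collagen, summed to 166 to 296 CPM, 141 to 217 CPM and 139 to 257 CPM. Against wildtype 0 of these 8 were above 0 in mdx vehicle (51.0% of all symbols), with a median of -0.43. In GTx-026 1 of 8 was (50.3%), with a median of -0.27, and none was called. The 7 tested of 8 smooth muscle and pericyte genes include Des, which skeletal fibres also express and which alone was at 3440 to 4300 CPM in wildtype. Without Des the other 6 summed to 147, 141 and 228 CPM in wildtype, then 126, 150 and 336 CPM in mdx vehicle and 266, 190 and 287 CPM in GTx-026. These sums overlapped between groups, and mdx vehicle library 3 was highest. Gene by gene, 3 of the 7 were above 0 for mdx vehicle against wildtype, with a median of -0.17. For GTx-026 7 of 7 were above 0 against wildtype (median 0.37) and against mdx vehicle (median 0.415). Against wildtype 4 of them did not overlap, 2 had an unadjusted p under 0.05 in the limma model, and none was called. The 8 skeletal muscle genes, which check the tissue label, summed to 164000 to 206000 CPM in wildtype, 116000 to 160000 CPM in mdx vehicle and 122000 to 208000 CPM in GTx-026. Every mdx vehicle library lay below every wildtype library in this sum, and Ckm, Myh4 and Tnnt3 were lower there without overlap, with no call. The 6 Schwann and nerve markers summed to 80.9 to 120 CPM, 49.1 to 102 CPM and 72.8 to 108 CPM. Of 8 cartilage and bone markers 2 were tested, Sox9 and Runx2, and summed to 3.98 to 6.22 CPM, 8.91 to 10.4 CPM and 9.18 to 13.4 CPM, and Sox9 rose in GTx-026 against wildtype (adjusted p = 0.0369). Of 8 lymphoid markers 1 was tested, Cd52, highest at 110 CPM in mdx vehicle library 1. The part of any of these cells in the collagen values was not tested.

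**Figure D5:**
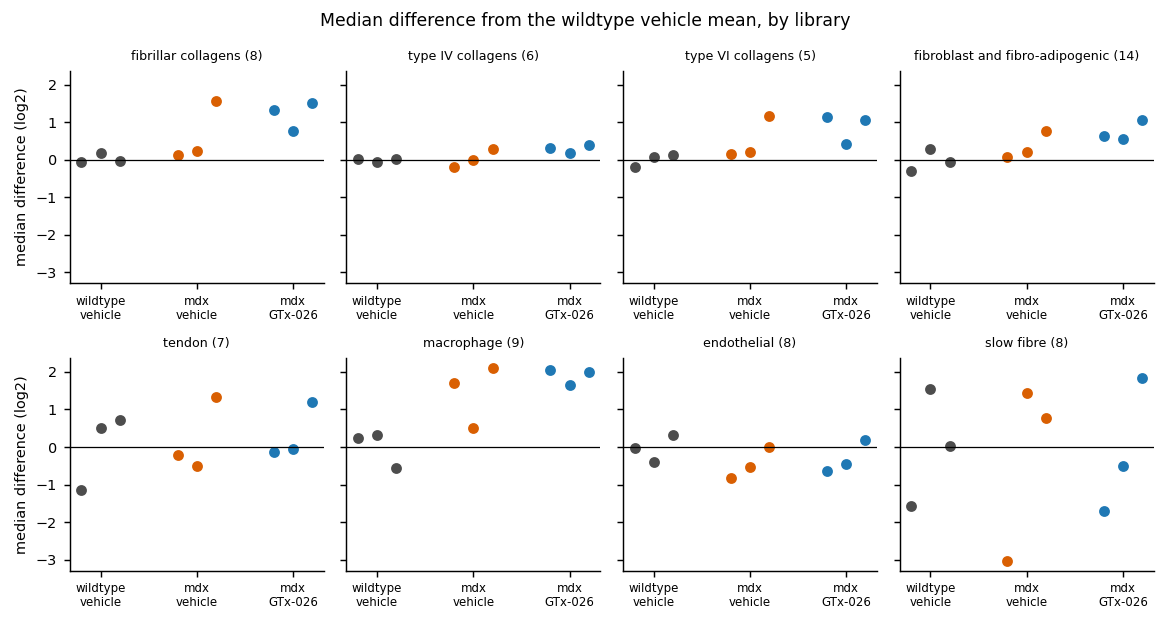
Median difference of log2(CPM + 1) from the wildtype vehicle mean (y axis) over the genes of 3 collagen classes and 5 marker lists (panels, with the number of genes), 1 point per library in the order 1, 2, 3 within each group. Fibroblast markers lie at 0.06, 0.20 and 0.76 in mdx vehicle and 0.62, 0.56 and 1.04 in GTx-026, and fibrillar collagens at 0.13, 0.22 and 1.57 and at 1.32, 0.78 and 1.52; slow-fibre genes spread over all groups.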

How the data were processed

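Polyadenylated RNA of 9 gastrocnemius libraries was sequenced on an Ion Torrent Proton, per the labels' protocols. The submitters' processing notes name the build GRCm38.p3 and DESeq2 1.6.3, HTSeq 0.6.1p1, TopHat2 2.0.13, SAMtools 0.1.19 and Bowtie2 2.2.4, without roles; the annotation and whether strand was used are not given in the sources used here. Each record's deposited signal is a scaled number of reads, and values below 10000 lay within 0.0745 of a whole multiple of 1 step per library. Per the file headers, the authors' ratio of group means and the authors' deposited p-value stand beside it. The smallest signal above 0 was 10, so 0 is read as listed at 0. As the values are scaled, the planned fallback for such values replaced the count test.

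Records were summed by symbol; 4 without a symbol (0.000646% of the signal) were left out. Reads were rescaled by an unweighted trimmed mean of log ratios (30% and 5% trimmed, factors 0.874 to 1.30). On log2(CPM + 1) of all 9 libraries limma 3.58.1 (R 4.3.3) was fitted with a trend in the prior variance and two-sided tests, with Benjamini-Hochberg adjustment over 15372 symbols. Scripts were tested on simulated data. Columns were matched to groups only, so library numbers pair nothing. Members and lists were chosen with earlier results of these data known. Named singly were the 6 most abundant fibrillar and 6 most abundant other members, all type IV and VI members, and members with an unadjusted p under 0.05. Of each other list at most 4 genes were named, taken from those with the lowest p for mdx vehicle against wildtype. Gsn, Des, Tnnt3 and the untested genes listed at 0 in a group were named outside this rule, after their values were seen. Lengths and coding sequences are from GENCODE M21 and promoters from RefSeq. The alternatives, 19 per comparison, changed the pseudocount, scaling, filter, records, samples, prior or weights, or left out 1 library.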

Additional observations from a re-analysis of the deposited data

How the results depend on the processing

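Members changed sign under some setting in 10, 15 and 5 cases in the 3 comparisons, with sizes up to 0.33, 0.53 and 0.19. Symbols called numbered 75 for mdx vehicle against wildtype, and were 332 with no filter on low values, 17 with the compared groups only and 331 with library weights. For GTx-026 against mdx vehicle there were 2, and 1 with a pseudocount of 5, 4 with the deposited scaling, 4 with library totals only, 96 with no filter, 1 with the compared groups only and 4 with library weights. For GTx-026 against wildtype 253 became 509 with no filter, 451 with the compared groups only and 926 with library weights. Leaving out a library gave 9 to 102, 0 to 2 and 65 to 401 calls.

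Collagens called for mdx vehicle against wildtype went from 0 to 1 with no filter (Col16a1), 2 with library weights (Col23a1 and Col4a5), and 0 to 1 leaving out a library. For GTx-026 against wildtype they went from 0 to 3 with the deposited scaling (Col3a1, Col5a1 and Col5a2), 2 with library totals only, 1 with no filter, 6 with the compared groups only (those 3, Col23a1, Col4a5 and Col6a2), 5 with library weights, and 0 to 5 leaving out a library, with 5 without mdx vehicle library 3, 3 without library 1 and 1 without library 2. For GTx-026 against mdx vehicle the count was 0 under each setting. The deposited scaling moved the median of all symbols by 0.15 for mdx vehicle against wildtype, where the collagen median was then 0.58.

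The type IV median for GTx-026 against mdx vehicle was 0.17 with a pseudocount of 5, and 0.14 to 0.50 leaving out a library. For GTx-026 against wildtype the fibrillar median was 0.93 to 1.42 leaving out a library, the type IV median 0.19 to 0.41, or 0.55 with a mean of at least 1 CPM, and that of the others 0.30 to 0.55, or 0.28 with a pseudocount of 5, 0.463 with the deposited scaling and 0.465 with library totals only. The fibrillar and type VI medians for mdx vehicle against wildtype were 0.215 to 0.95 and 0.15 to 0.64 leaving out a library, and those for GTx-026 against mdx vehicle 0.34 to 0.88 and 0.165 to 0.73. The causes were not tested. No paired analysis was possible because the columns carry no number that the labels share between groups.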

Other observations

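The authors' deposited table tests each record by itself, without adjustment. In it 7 of the 71 records of the 29 members, from 3 symbols, had a p-value under 0.05 with wildtype below mdx vehicle, where 3.75% of all records did. Most of these 7 are records of Col7a1, so they are not independent. With wildtype below GTx-026 it was 18 of 71 records, from 11 symbols, where 6.78% did, and with mdx vehicle below GTx-026 it was 0 of 71, where 1.25% did. In the other direction it was 1, 1 and 2 records in the same order, of Col4a4, Col24a1 and Col24a1. The share of all records in that direction was not counted. The 4 records of Col16a1, at 0 in wildtype, are not among the 71, while the shares over all records include such records. Their deposited p-values by the authors were 0.00664 to 0.0382 with wildtype below GTx-026, and 0.0931 to 0.162 with wildtype below mdx vehicle.

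Within a library, the Col3a1 to Col1a1 log2 ratio averaged 0.96 in wildtype, 1.24 in mdx vehicle and 1.46 in mdx GTx-026, with an SD of 0.72 in wildtype, where library 1 stood at 1.73. Col1a1, Col1a2 and Col3a1 alone made up 34.1% to 42.3% of the collagen CPM in wildtype, 41.3% to 52.0% in mdx vehicle and 46.1% to 53.3% in mdx GTx-026.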
